A study of Mus musculus with 18 samples.

Results

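The 10 genes described here encode subunits of Polycomb repressive complex 2 (PRC2), and all 10 were found among the 54347 genes of an RNA-seq count table with 18 libraries from mouse marrow-derived mesenchymal stem cells (MSC). They were taken by name: Ezh1, Ezh2, Eed, Suz12, Rbbp4, Rbbp7, Jarid2, Mtf2, Phf19 and Aebp2. Their values were not used as a rule, but earlier results of these data were known when the genes were chosen. MSC are adherent stromal progenitors that can be driven towards fat or bone. Here they were a primary line from the pooled marrow of male C57BL/6J mice. The study asked how actin inside the nucleus bears on chromatin and transcription.

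The libraries formed 6 groups of 3 in 2 experiments. In the first experiment cells were untransfected and received nothing (control), CK666, which blocks the actin-branching complex Arp2/3, or CytoD (cytochalasin D), a fungal toxin that binds the growing ends of actin filaments. In the second, every cell was transfected, with a control siRNA (siControl, the label's "siRNA mock"), with an siRNA against Arp4 (siArp4), or with the Arp4 siRNA followed by CK666 (siArp4+CK666). The Arp4 protein, encoded by Actl6a, is an actin-related subunit of nuclear chromatin complexes. The labels gave no dose or duration, and the study's text places the expression changes with the drugs a day after treatment. A group with siControl and CK666 was not analysed here, so the effect of CK666 in transfected cells can be read only on top of the knockdown. The methods describe distinct preparations per condition, but since the cells were a line made from pooled marrow, p-values measure the spread between these preparations and not between mice.

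PRC2 places methyl groups on lysine 27 of histone H3, a mark found at genes that are kept silent, among them developmental regulators such as the Hox genes. EZH1 and EZH2 are alternative catalytic subunits. EZH2 is known to be abundant in dividing cells and EZH1 to persist in cells that no longer divide. EED and SUZ12 complete the core and are needed for activity, and the histone-binding proteins RBBP4 and RBBP7 are shared with other chromatin complexes. Accessory proteins define the forms called PRC2.1, with MTF2, PHF19 or PHF1, and PRC2.2, with JARID2 and AEBP2.

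In the mouse genome (build GRCm38, GENCODE annotation) Ezh1 lies on chromosome 11 from 101191115 to 101226463 and Ezh2 on chromosome 6 from 47530139 to 47595341. Eed lies on chromosome 7 from 89954654 to 89980983 and Suz12 on chromosome 11 from 79993106 to 80034123. Rbbp4 spans 129307100 to 129335370 of chromosome 4, and Rbbp7 spans 162760402 to 162779092 of chromosome X. Mtf2 lies on chromosome 5 from 108065674 to 108109004 and Phf19 on chromosome 2 from 34893757 to 34914026. Jarid2 covers 44729474 to 44921643 of chromosome 13, and Aebp2 covers 140622663 to 140678472 of chromosome 6. Because the libraries were unstranded, reads of genes that overlap on opposite strands cannot be told apart. Mtf2 shared 395 exon bases with Tmed5 on the other strand, whose mean count of 3644 was above the 481 of Mtf2, so the values of Mtf2 are uncertain. Rbbp7 shared 174 exon bases with Txlng, and Rbbp4 shared 782 with Sync, both of which had lower mean counts (500.3 and 62.3, against 5379 and 3808).

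Promoter windows of all 10 genes, from 250 bases before to 50 bases after a start, were taken from RefSeq (GRCm38.p6) and searched on both strands for 4 motifs known from genes of the cell cycle and of the amino acid response. E2F sites, the elements bound by the E2F factors that govern entry into S phase, were searched as TTTCCCGC, TTTCGCGC, TTTGCCGC or TTTGGCGC. Ezh2, Suz12 and Phf19 held such a word, which made 3 of the 14 windows of the 10 genes, against 2.26% of all 32851 windows. The RNA of all 3 genes was lower with CytoD. With CK666 only Ezh2 of the 3 was lower at an adjusted p below 0.01 (DESeq2), and Suz12 was higher in siArp4+CK666. A link between the word and these levels was not tested. The 3 windows that hold the word are printed 5′ to 3′ on the strand of the gene, with the E2F word in capitals. The Ezh2 window is chr6:47594981-47595280 on the minus strand, with the word 3 bases after the RefSeq start. The Suz12 window is chr11:79992856-79993155 on the plus strand, and the word begins 219 bases before the start. The Phf19 window is chr2:34913927-34914226 on the minus strand, and the word is on its other strand, beginning 208 bases before the start.
Ezh2: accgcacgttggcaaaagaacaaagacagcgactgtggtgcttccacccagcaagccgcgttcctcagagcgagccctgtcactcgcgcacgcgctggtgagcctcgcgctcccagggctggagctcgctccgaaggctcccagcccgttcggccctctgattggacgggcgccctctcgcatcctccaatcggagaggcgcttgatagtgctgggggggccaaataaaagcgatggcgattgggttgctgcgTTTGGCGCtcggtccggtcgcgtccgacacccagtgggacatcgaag
Suz12: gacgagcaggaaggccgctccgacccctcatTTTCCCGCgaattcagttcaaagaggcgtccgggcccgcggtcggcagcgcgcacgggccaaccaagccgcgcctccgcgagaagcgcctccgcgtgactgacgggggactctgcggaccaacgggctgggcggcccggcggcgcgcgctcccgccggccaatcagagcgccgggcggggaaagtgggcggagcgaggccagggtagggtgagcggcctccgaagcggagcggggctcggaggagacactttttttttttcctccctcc
Phf19: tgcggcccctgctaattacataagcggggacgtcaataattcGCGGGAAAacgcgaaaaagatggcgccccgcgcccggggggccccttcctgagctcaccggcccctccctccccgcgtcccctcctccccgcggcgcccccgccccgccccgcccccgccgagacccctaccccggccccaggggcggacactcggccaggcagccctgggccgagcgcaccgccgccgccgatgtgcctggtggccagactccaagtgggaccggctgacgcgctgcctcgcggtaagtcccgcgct

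The CHR element of cell cycle genes, searched as TTTGAA, was in 4 of the 14 windows (Eed, Suz12 and one window each of Mtf2 and Aebp2) and in 17.9% of all windows. CCAAT was in 9 of the 14 and in 37.4% of all. TGATGNAA, the element of ATF4 target genes, was in 0 of the 14 and in 3.97% of all. The words of different motifs do not contain each other. Eed, Rbbp7, Mtf2 and Aebp2 were also lower with CytoD and held no E2F word in these windows.

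Library totals ran from 18075610 to 24733212 estimated counts, and 12563 to 13234 genes per library had a count of at least 10. The labelled knockdown was seen in every library: Actl6a stood at 720.1, 1127 and 841 normalized counts in siControl, against 48.9, 57.2 and 19 with the knockdown and 9.52, 22.9 and 17.9 with CK666 added. Stromal genes such as Pdgfra, Pdgfrb and Col1a1 were abundant in all libraries, but Thy1, a usual MSC marker, was at 0 in every library, and Nt5e did not exceed 8.16 normalized counts. The summed count of 11 stromal markers differed between groups. It was 192970 to 204305 in control, 102126 to 117170 in CK666 and 180360 to 195754 in CytoD. In the second experiment it was 98513 to 165458 in siControl, 223673 to 252646 in siArp4 and 109120 to 129778 in siArp4+CK666. The T cell marker Cd3e, the endothelial marker Cdh5, the adipocyte gene Lep and the osteoblast gene Ibsp were at 0 throughout. Most genes of the same lists were not. Only 2 of 8 haematopoietic, 1 of 4 endothelial, 1 of 4 adipocyte and 1 of 5 osteoblast genes were at 0 in every library. Adipoq reached 657 normalized counts in CytoD and Bglap2 108 in CK666. Csf1r reached 181 and Cd14 127 in siControl, and Kdr 25.3 in siArp4+CK666. The siControl libraries all differed widely, by a chi-square per degree of freedom of 425 between replicates 1 and 2, 147.5 between 2 and 3 and 119.7 between 1 and 3, against a lowest value of 6.79 in any group. CK666 replicate 1 stood apart within its group (107.8 and 67.1 from the others, which differed by 13.9). Counts of genes are therefore also given without siControl replicate 1 or 2 and without CK666 replicate 1 where they changed.

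Scaled to exon length, the RNA of the histone-binding subunit Rbbp7 was far above that of the other members. In control cells the mean level of Rbbp7 was 134 CPM per kb of exon (counts scaled to the library total and to exon length), followed by Rbbp4 (24.2) and Suz12 (23), whose library ranges overlapped. Aebp2 (14), Ezh2 (11.5) and Eed (9.29) came next. Mtf2 (4.9), Phf19 (2.28), Ezh1 (2.01) and Jarid2 (1.05) were the lowest. The order differed between groups. Aebp2 rose to 23.9 with CK666, level with Suz12 (24.6) and Rbbp4 (22.5) on the same scale. Jarid2 was the lowest member in control and CK666 cells, it was level with Phf19 in CytoD, and in the transfected groups Phf19 was the lowest, at 0.62 in siControl and 0.0403 in siArp4.

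**Figure D1:**
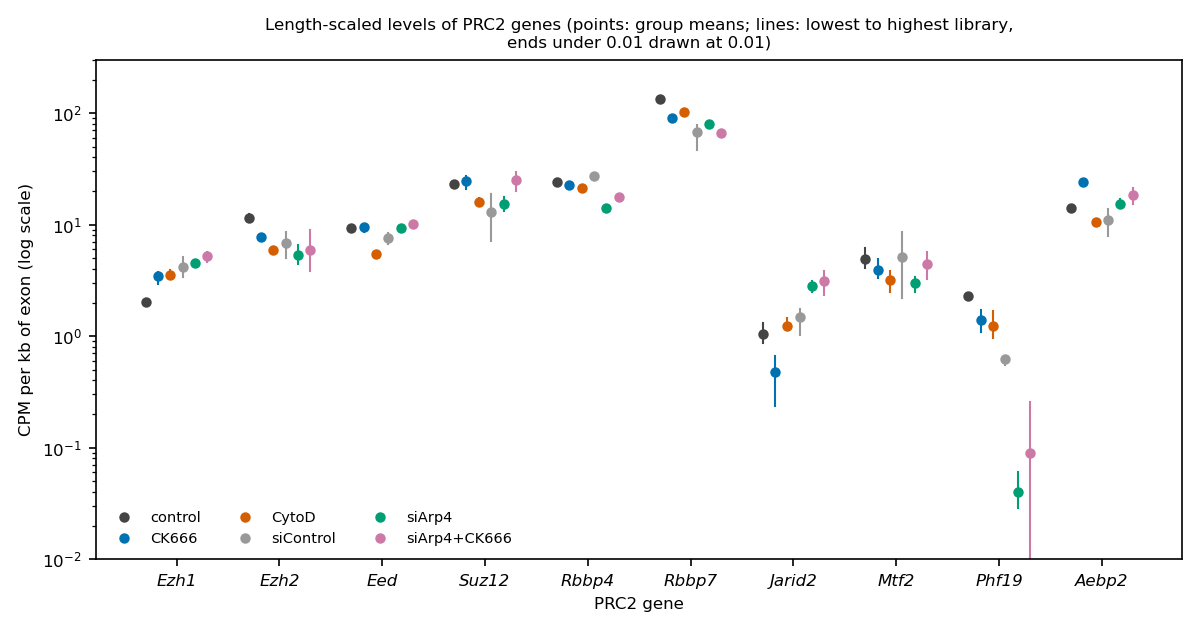
Mean level of each PRC2 gene in the 6 groups, in CPM per kb of exon (log axis), with lines from the lowest to the highest of the 3 libraries. Rbbp7 was the highest member in every group, and Phf19 was far lower in siArp4 and siArp4+CK666 than anywhere else.

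Differences were tested with the Wald test of DESeq2 over all genes of an experiment, and a gene is said to have risen or fallen where its Benjamini-Hochberg adjusted p was below 0.01, at any fold change. Levels are normalized counts, which are estimated counts divided by the size factor of the library within its own experiment, given for replicates 1, 2 and 3 in that order. With CK666, 5 of the 10 members passed (2 higher, 3 lower), beside 30% of the 14597 genes tested in that comparison (15.3% higher, 14.7% lower). With CytoD 8 of 10 passed (1 higher, 7 lower), beside 29.6% of all genes tested (13.6% higher, 16% lower). The median log2 fold change of the 10 members was -0.25 with CK666 and -0.57 with CytoD, beside 0.013 and 0.0076 for all genes tested. These 2 comparisons share the control libraries, and CK666 was therefore also set directly against CytoD, where 5 of 10 members passed (4 higher and 1 lower with CK666), beside 31.8% of all genes (16.9% higher, 14.9% lower). Of the members that did not pass there, Ezh1 is described with Ezh2, and the log2 difference was 0.13 for Rbbp4, -0.12 for Rbbp7, 0.34 for Mtf2 and 0.26 for Phf19 (DESeq2, adjusted p of 0.216 to 0.474). In bulk RNA, fewer cells of a kind and less RNA per cell cannot be told apart.

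In the second experiment the shares of members that passed were close to those of all genes. Against siControl, 3 of 10 passed in siArp4 (1 higher, 2 lower), beside 25.1% of all genes tested (11.9% higher, 13.1% lower). In siArp4+CK666 4 of 10 passed (3 higher, 1 lower), beside 29.9% (14% higher, 15.8% lower). These comparisons share the siControl libraries. The median log2 fold change of the members was 0.19 and 0.13, beside -0.053 and -0.054 for all genes. Without siControl replicate 2 the counts were 4 (1 higher, 3 lower) and 4, beside 27.9% and 33.2% of all genes. Without siControl replicate 1 they were 4 (2 higher, 2 lower) and 4, beside 35.7% and 40.3%. Without CK666 replicate 1 the CK666 count was 6 (2 higher, 4 lower), beside 34.7%. Where the study's own rule was used, which also asks for an absolute log2 fold change over 1, 1 member passed in each of the 4 comparisons with a control: Jarid2 with CK666, Ezh2 with CytoD, Phf19 in siArp4 and Jarid2 in siArp4+CK666. That rule took 11%, 9.12%, 16.2% and 20.4% of all genes.

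**Figure D2:**
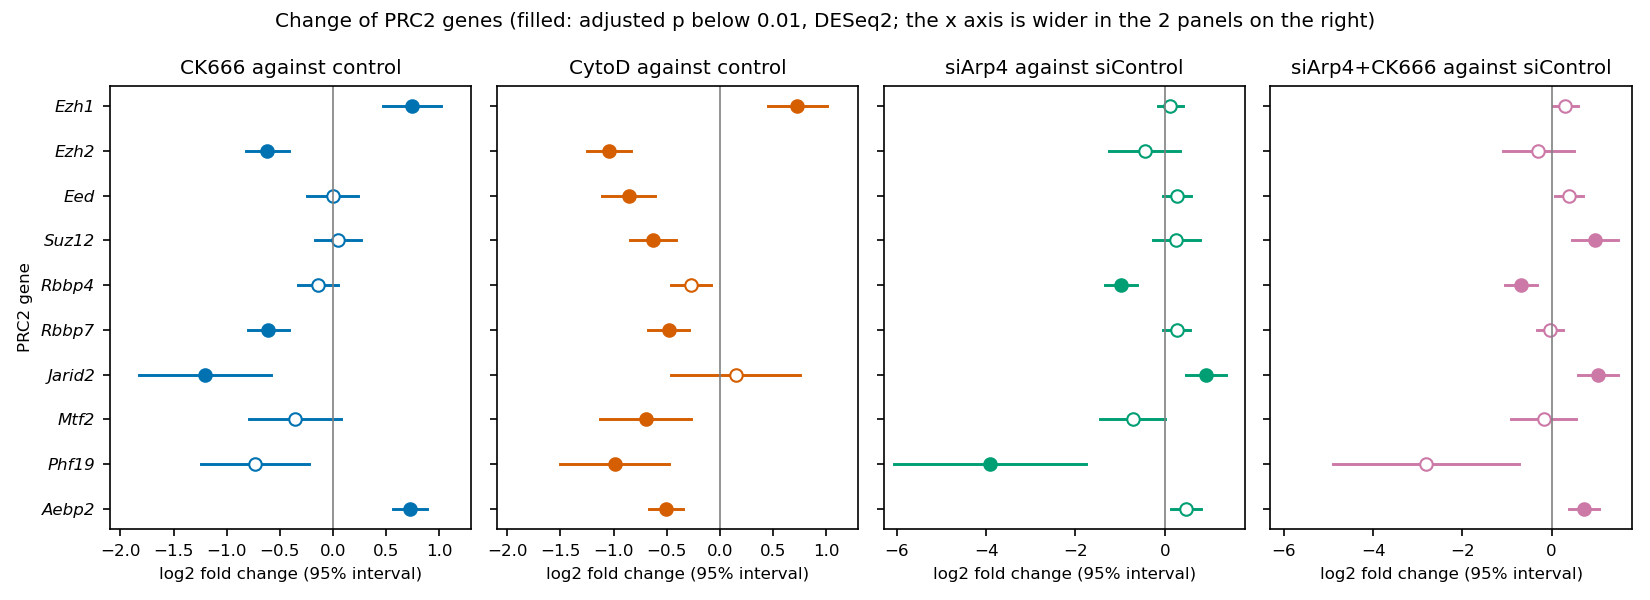
Log2 fold change of each PRC2 gene with its 95% interval in the 4 comparisons with a control, filled where the adjusted p was below 0.01. CytoD has 7 filled points below 0 and 1 above, CK666 has 3 below and 2 above, and the widest interval is that of Phf19 in the siArp4 comparisons.

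The catalytic pair changed in opposite directions in the first experiment. Ezh2, the main methyltransferase of dividing cells, was at 1488, 1571 and 1715 normalized counts in control, 1125, 998 and 988 in CK666 and 769.5, 766 and 779 in CytoD. The 3 groups did not overlap, with control highest and CytoD lowest, and the CytoD libraries lay within a narrow band. Ezh2 fell with CK666, by a log2 value of -0.62 (adjusted p = 3.44e-08, SE 0.10), and with CytoD, with -1.04 (adjusted p = 2.32e-21, SE 0.11), and it was 0.43 higher on the log2 scale in CK666 than in CytoD (adjusted p = 0.000304, DESeq2). With all 18 libraries in 1 fit, the fall with CK666 (-0.63, adjusted p = 0.127) and the difference between the drugs (0.41, adjusted p = 0.355) no longer passed. Ezh1 stood at 291, 331 and 304 normalized counts in control, 457, 546 and 546 in CK666 and 487, 562 and 484 in CytoD. Every treated library was above every control library, and the treated groups overlapped. Ezh1 rose by nearly the same amount under both drugs, with log2 fold changes of 0.74 (adjusted p = 1.05e-06, SE 0.14) and 0.73 (adjusted p = 1.88e-06, SE 0.14). The difference between CK666 and CytoD was 0.014, with a 95% interval of -0.25 to 0.28.

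The balance of the pair was summarised as the share of Ezh2 in the sum of Ezh1 and Ezh2, both per kb of exon. It was 85.1, 84.1 and 86.2% in the control libraries, 73.3, 67 and 66.8% in CK666 and 63.8, 60.3 and 64.2% in CytoD. The groups did not overlap: the mean fell from 85.1% ± 1.08 (SD, n = 3) to 69.1% ± 3.68 and 62.8% ± 2.15. The difference was -16.1 percentage points for CK666 and -22.4 for CytoD, each with an exact two-sided permutation p of 0.1, the smallest that 3 libraries against 3 allow. Ezh2 remained the larger of the pair in every library of the first experiment.

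**Figure D3:**
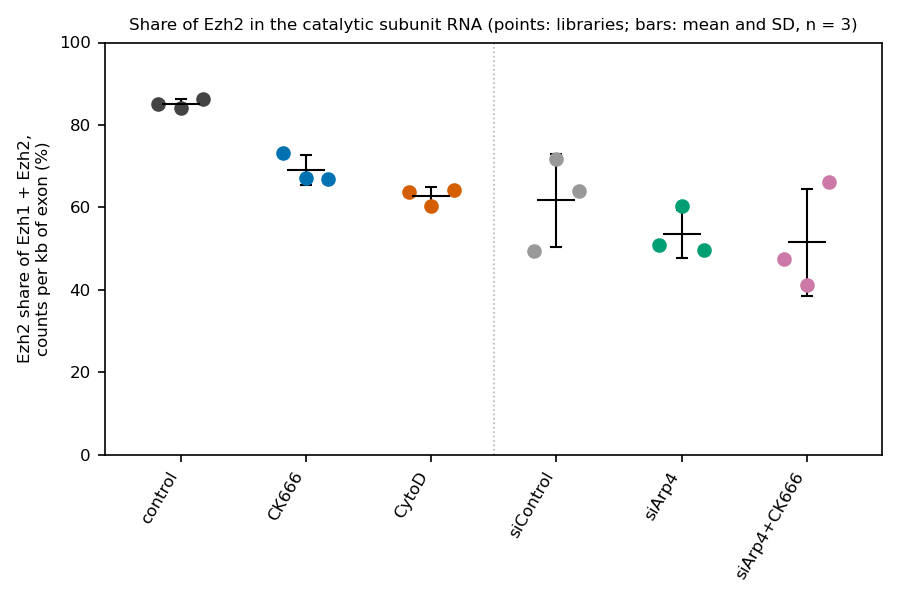
Share of Ezh2 in the summed level of Ezh1 and Ezh2 (counts per kb of exon, %), with a point per library and the mean and SD of 3 libraries per group. The share was highest in control cells, at 84.1% to 86.2%, and ranged most widely in siControl (49.5% to 71.7%) and siArp4+CK666 (41.1% to 66.1%).

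In transfected cells Ezh2 varied widely within groups, and no difference passed. Ezh2 was at 608, 1466 and 965 normalized counts in siControl, 697, 914 and 610.2 in siArp4 cells and 675, 522 and 1276 in siArp4+CK666. SiControl replicate 2 and siArp4+CK666 replicate 3 were the high libraries, and all 3 groups overlapped. The log2 fold change was -0.45 (adjusted p = 0.419, SE 0.41) in siArp4 cells and -0.30 (adjusted p = 0.602, SE 0.41) in siArp4+CK666, with 95% intervals of -1.25 to 0.34 and -1.09 to 0.50 that still hold a change of the size seen with CK666 in untransfected cells. The value in siArp4+CK666 was 0.067 without siControl replicate 2 and -0.56 without siControl replicate 1. Ezh1 was at 691, 646 and 603 in siControl, 752, 669.5 and 690.3 in siArp4 cells and 834, 835 and 729 in siArp4+CK666. It did not pass in either comparison (0.12, adjusted p = 0.548, and 0.31, adjusted p = 0.0737, DESeq2). The share of Ezh2 averaged 61.7% ± 11.3 in siControl, 53.6% ± 5.88 in siArp4 and 51.5% ± 13.0 in siArp4+CK666, differences from siControl of -8.17 (p = 0.4) and -10.2 percentage points (p = 0.3, exact permutation tests).

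The core scaffold genes separated the 2 drugs. Eed, which reads the methyl mark and stimulates the enzyme, was at 717, 763 and 723 normalized counts in control, 816, 735 and 646 in CK666 and 388, 411 and 415 in CytoD. The control and CK666 libraries overlapped, and every CytoD library was far below both. The log2 fold change was -0.86 (adjusted p = 1.32e-10, SE 0.13) with CytoD and -0.0043 with CK666, with a 95% interval of -0.24 to 0.24 (adjusted p = 0.986, DESeq2). Suz12, which holds the core together, behaved likewise, at 2305, 2395 and 2348 in control, 2136, 2644 and 2515 in CK666 and 1637, 1487 and 1433 in CytoD. Only the CytoD group lay apart. Its log2 fold change was -0.63 (adjusted p = 1.49e-07, SE 0.11) with CytoD and 0.05 with CK666, with a 95% interval of -0.17 to 0.27. Set directly against CytoD, CK666 cells had more Eed by 0.85 (adjusted p = 1.41e-10, SE 0.13) and more Suz12 by 0.68 (adjusted p = 1.00e-08, SE 0.11) on the log2 scale.

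After Arp4 knockdown neither core gene fell. Suz12 stood at 1698, 890.3 and 1322 normalized counts in siControl, 1487, 1376 and 1805 in siArp4 cells and 2935, 2606 and 2126 in siArp4+CK666. The last group was above both others in every library. Suz12 rose in siArp4+CK666 against siControl, by a log2 value of 0.97 (adjusted p = 0.00128, SE 0.27), and differed by 0.25 (adjusted p = 0.502, SE 0.27) in siArp4. The rise was lost with edgeR (adjusted p = 0.0137) and when siArp4+CK666 replicate 1 or 2 or siControl replicate 3 was left out (0.0101 to 0.0196). Eed, at 529, 655 and 646 in siControl, 762, 781 and 669 in siArp4 cells and 818, 747 and 829 in siArp4+CK666, did not pass (0.27, adjusted p = 0.174, and 0.39, adjusted p = 0.0374, DESeq2), although its siControl libraries lay below all the others. With all 18 libraries in 1 fit Eed passed in siArp4+CK666 (0.39, adjusted p = 0.00382).

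The histone-binding paralogues Rbbp4 and Rbbp7 did not move as a pair. Rbbp7 was at 8248, 7573 and 8328 normalized counts in control, 5780, 5030 and 5040 in CK666 and 5447, 6027 and 5796 in CytoD, with all treated libraries below all control libraries. It fell under both drugs, with log2 fold changes of -0.61 (adjusted p = 3.18e-09, SE 0.10) and -0.48 (adjusted p = 3.83e-06, SE 0.10). Rbbp4 was at 4675, 4182 and 4244 in control, 4305, 3799 and 3769 in CK666 and 3488, 3549 and 3819 in CytoD. It did not pass with CK666 (-0.14, adjusted p = 0.255) or with CytoD (-0.27, adjusted p = 0.0168, DESeq2). Its CytoD libraries lay below all controls, and in a fit of only those 6 libraries Rbbp4 passed with the same size of change (-0.27, adjusted p = 0.000379).

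After Arp4 knockdown it was Rbbp4 that passed, and Rbbp7 did not. Rbbp4 was at 4170, 6254 and 4871 normalized counts in siControl, 2677, 2386 and 2672 in siArp4 cells and 3073, 3016 and 3389 in siArp4+CK666. Every siArp4 and siArp4+CK666 library lay below every siControl library. Rbbp4 fell in both, with log2 fold changes of -0.98 (adjusted p = 1.53e-06, SE 0.19) in siArp4 cells and -0.69 (adjusted p = 0.000978, SE 0.19) in siArp4+CK666. The latter was lost when siArp4+CK666 replicate 1 or 2 was left out (adjusted p = 0.0139 and 0.0189) and in a fit of only the 6 libraries compared (0.0185). Rbbp7 was at 4092, 3439 and 4591 in siControl, 4787, 4825 and 4948 with the knockdown and 3677, 4224 and 3930 with CK666 added, and it did not pass (log2 fold changes of 0.26 and -0.036). The share of Rbbp4 in the sum of both, per kb of exon, was 25.3, 37.7 and 26.1% in siControl, 15.7, 14.1 and 15.2% in siArp4 cells and 21.8, 19.2 and 22.3% in siArp4+CK666, against 15.9, 15.5 and 14.5% in control. The siArp4 shares lay below all siControl shares, with a difference of -14.7 percentage points (exact permutation p = 0.1, the smallest possible), and siControl replicate 2 had the highest share of all.

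Phf19, the PRC2.1 subunit that binds the histone mark of active genes, fell with CytoD and was near 0 after Arp4 knockdown. It was at 249, 222 and 242 normalized counts in control, 183, 138 and 109 in CK666 and 162, 92.9 and 105 in CytoD. Both treated groups lay below all control libraries. Phf19 fell with CytoD, by a log2 value of -0.99 (adjusted p = 0.000745, SE 0.26), and with CK666 the value was -0.73 (adjusted p = 0.015, SE 0.26). The CytoD call was lost with edgeR (adjusted p = 0.0102) and without control replicate 1 or CytoD replicate 2 or 3 (0.0105 to 0.0157), and with all 18 libraries (0.255). The CK666 value passed without CK666 replicate 1, the library that stood apart (-0.95, adjusted p = 0.00115), and in a fit of only the 6 libraries compared (-0.74, adjusted p = 0.00948).

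In transfected cells Phf19 was at 61.2, 70.4 and 66.3 normalized counts in siControl, and only 6.74, 3.24 and 3.01 in siArp4. In siArp4+CK666 it was at 0, 0.954 and 27.4. The siControl libraries agreed closely and every knockdown library was below them, with siArp4+CK666 replicate 3 apart from its group. The log2 fold change in siArp4 was -3.92 (adjusted p = 0.00189, SE 1.10), the largest of any member, with a 95% interval of -6.07 to -1.76 at counts near 0. It was lost with edgeR (-3.88, adjusted p = 0.0291) and without siArp4 replicate 2 or 3 or siControl replicate 3 (adjusted p of 0.0148 to 0.0159). In siArp4+CK666 the value was -2.81 (adjusted p = 0.0241, SE 1.06), and without replicate 3 of that group it was -7.04 (adjusted p = 2.30e-05). The call was also made with all 18 libraries in 1 fit (-2.79, adjusted p = 0.000198).

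Mtf2, the other PRC2.1 member, which brings the complex to unmethylated CpG-rich DNA, varied more within groups, and its overlap with Tmed5 makes it uncertain. It was at 487, 716 and 526 normalized counts in control, 399, 549.5 and 401 in CK666 and 362, 425 and 276 in CytoD. The CytoD libraries lay below all controls, whereas CK666 overlapped with control. Mtf2 fell with CytoD (-0.70, adjusted p = 0.00541, SE 0.22), a call that ended with edgeR (adjusted p = 0.0247), with all 18 libraries (0.0799) and in 4 of the 6 fits that left out a control or CytoD library, and with CK666 it did not pass (-0.36, adjusted p = 0.194, DESeq2). In siControl it ranged from 319 in replicate 2 to 904 in replicate 1. Against that spread neither siArp4 (-0.72, adjusted p = 0.124) nor siArp4+CK666 (-0.18, adjusted p = 0.749) passed in DESeq2. The siArp4 value was -1.02 without siControl replicate 2 (adjusted p = 0.00338) and -0.25 without siControl replicate 1 (adjusted p = 0.508).

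The PRC2.2 genes had the largest log2 differences between the drugs among the members, in opposite directions. Aebp2, a zinc finger protein that helps the complex bind nucleosomes, was at 2878, 2674 and 3010 normalized counts in control, 4688, 4647 and 4818 in CK666 and 2072, 1973 and 1987 in CytoD. The 3 groups were separate and in the order CytoD, control, CK666. Aebp2 rose with CK666, by a log2 value of 0.73 (adjusted p = 1.11e-17, SE 0.081), and fell with CytoD, with -0.51 (adjusted p = 1.02e-08, SE 0.082). Set against each other, the drugs differed by 1.23 (adjusted p = 5.11e-49, SE 0.082) on the log2 scale, the smallest adjusted p of any member in any comparison. In the second experiment Aebp2 was at 2507, 1977 and 2213 in siControl, 2916, 2998 and 3395 in siArp4 cells and 4153, 3677 and 3218 in siArp4+CK666. Both knockdown groups were above all siControl libraries. The rise passed in siArp4+CK666 (0.72, adjusted p = 0.00012, SE 0.17), while the siArp4 value was 0.47 (adjusted p = 0.0186, SE 0.17). The latter passed without siControl replicate 1 (0.56, adjusted p = 0.00355), with a filter on low counts (0.00911) and with all 18 libraries in the fit.

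Jarid2, which links PRC2 to nucleosomes carrying the PRC1 mark, fell with CK666 and rose after the knockdown. It was at 263, 194 and 176 normalized counts in control, 47.2, 128 and 99.5 in CK666 and 269, 216 and 216 in CytoD. All CK666 libraries were below all others, with CK666 replicate 1 the lowest, and CytoD overlapped with control. Jarid2 fell with CK666, by a log2 value of -1.20 (adjusted p = 0.000688, SE 0.32), and the value with CytoD was 0.15 (adjusted p = 0.753, SE 0.31). The CK666 call was lost with edgeR (adjusted p = 0.0131) and without control replicate 1 (-1.01, adjusted p = 0.0154). Set directly against CytoD, CK666 cells had less Jarid2 (-1.35, adjusted p = 0.000104, SE 0.32), a call that held in every alternative fit. In transfected cells it was at 298, 254 and 345 in siControl, 574, 509 and 622 in siArp4 cells and 742, 616 and 485 in siArp4+CK666. Every knockdown library was above every siControl library. Jarid2 rose with the knockdown alone (0.92, adjusted p = 0.000253, SE 0.22) and with CK666 added (1.04, adjusted p = 2.45e-05, SE 0.22), and both calls held in every alternative fit that was run.

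**Figure D4:**
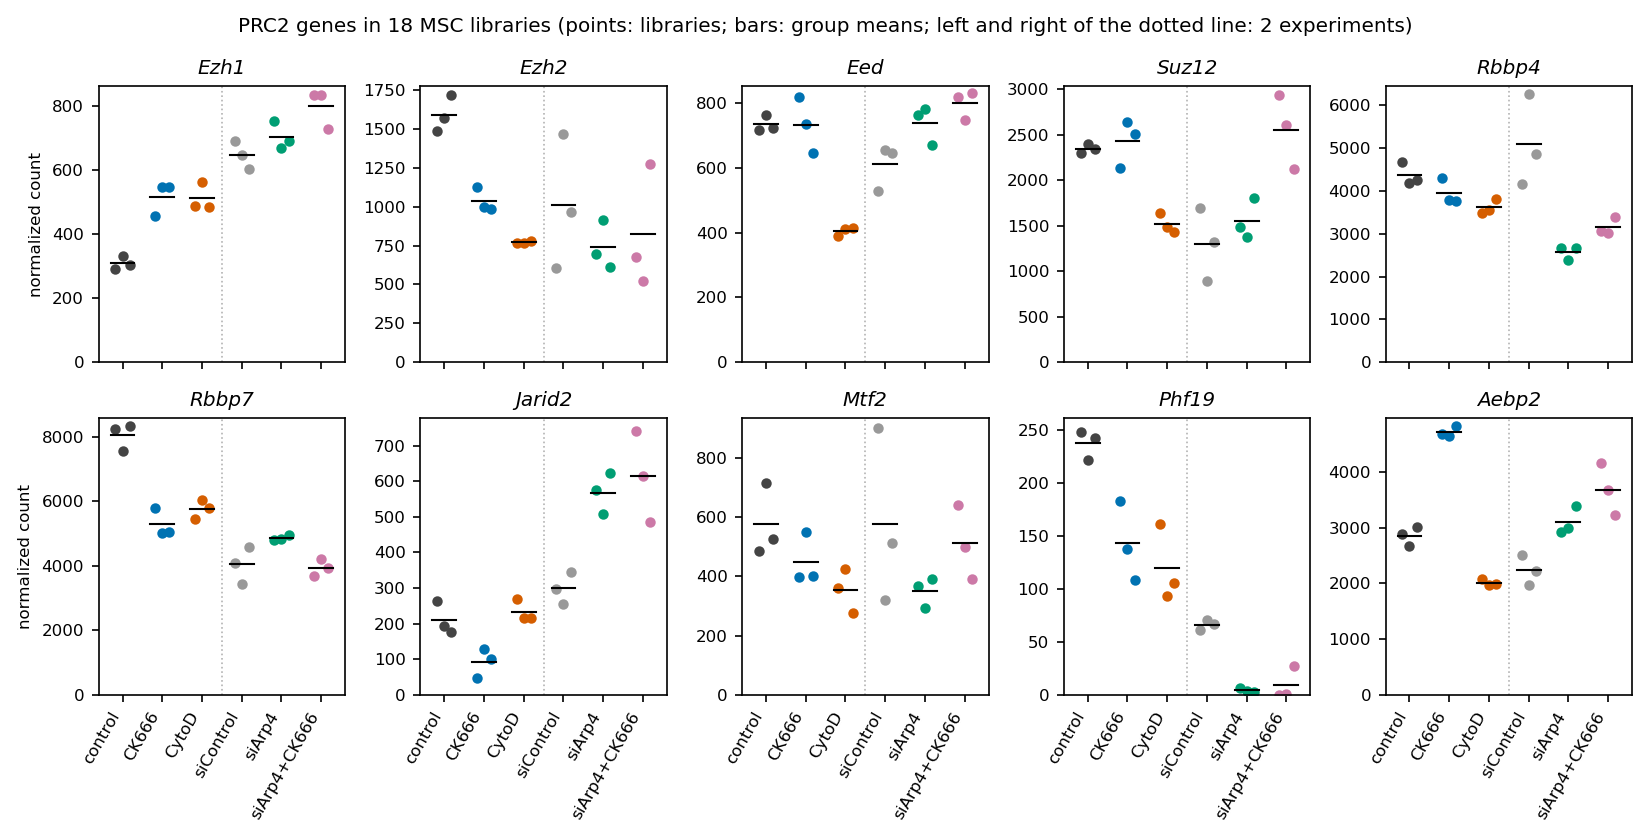
Normalized count of each PRC2 gene in every library (points, with the group mean as a bar), from 0, in the 3 groups of the first experiment left of the dotted line and the 3 transfected groups right of it. Aebp2 was highest in CK666 and lowest in CytoD, Jarid2 was lowest in CK666 and highest in the 2 knockdown groups, and Phf19 was near 0 after knockdown. Levels left and right of the line were scaled separately.

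Adding CK666 to knockdown cells changed no member past the threshold. Against siArp4, 0 of 10 passed in siArp4+CK666 with DESeq2 and 0 with edgeR, while 2 had an unadjusted p below 0.05 (Suz12 and Rbbp7), and 9.9% of all 14098 genes tested passed. The log2 fold change of Suz12 was 0.72 (adjusted p = 0.0515, SE 0.27), and its 2 groups did not overlap. It passed where only those 6 libraries were fitted (0.72, adjusted p = 0.000351) and where all 18 were (0.70, adjusted p = 0.0025). For Aebp2 the value was 0.25 with a 95% interval of -0.085 to 0.58, and for Jarid2 0.11 with -0.32 to 0.55. Rbbp7 differed by -0.30 (adjusted p = 0.208, SE 0.15) and Rbbp4 by 0.29 (adjusted p = 0.363, SE 0.19). The values of Ezh1 (0.18), Ezh2 (0.15), Eed (0.11), Mtf2 (0.54) and Phf19 (1.11) had adjusted p of 0.418 to 0.897 in DESeq2.

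The effect of CK666 with and without knockdown was compared in a fit of all 18 libraries with 6 groups, as the change from siArp4 to siArp4+CK666 minus the change from control to CK666. Transfection and experiment cannot be told apart from the knockdown in this contrast. The difference passed for 2 of 10 members, against 7.82% of all 13511 genes tested. For Jarid2 it was 1.31 (adjusted p = 0.00948, SE 0.39) and for Ezh1 -0.56 (adjusted p = 0.00779, SE 0.16) on the log2 scale, so the change with CK666 was less negative for Jarid2 and less positive for Ezh1 in knockdown cells. With edgeR neither passed (adjusted p = 0.0484 and 0.0376), and leaving out any 1 of the 12 libraries ended at least 1 of the 2 calls (log2 differences of 0.996 to 1.62 for Jarid2 and -0.64 to -0.52 for Ezh1). For Aebp2 the difference was -0.48 (adjusted p = 0.0134, SE 0.15), and for Ezh2 it was 0.77 with a 95% interval of -0.10 to 1.65.

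The control groups of the experiments themselves differed in PRC2 genes. In siControl against control, in the same fit, 4 of 10 members passed (1 higher, 3 lower), beside 42.1% of all genes (21.7% higher, 20.4% lower). Ezh1 was higher by 1.12 (adjusted p = 1.21e-19, SE 0.12) on the log2 scale. Rbbp7 was lower (-0.94, adjusted p = 7.84e-18, SE 0.11), as was Suz12 (-0.80, adjusted p = 0.000123, SE 0.19), and Aebp2 passed narrowly (-0.30, adjusted p = 0.01, SE 0.11), a call that ended with edgeR, with TMM size factors and when any 1 library of either group other than siControl replicate 1 was left out. Ezh2 differed by -0.59 (adjusted p = 0.102, SE 0.32), by -0.98 without siControl replicate 2 (adjusted p = 0.00411) and by -0.33 without siControl replicate 1 (adjusted p = 0.358). Phf19 was just outside the threshold (-1.80, adjusted p = 0.0104, SE 0.63). Jarid2 (0.55, adjusted p = 0.0737, SE 0.27), Rbbp4 (0.28, adjusted p = 0.0835, SE 0.14), Eed (-0.22, adjusted p = 0.121, SE 0.12) and Mtf2 (0.052, adjusted p = 0.904, SE 0.31) did not pass. Rbbp4 passed without siControl replicate 1 (0.41, adjusted p = 0.00292). Transfection, the control siRNA and the time of the experiment cannot be told apart here.

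Genes of the cell cycle moved in most of these comparisons, and their values are given beside those of Ezh2 and Phf19. Of a list of 25 cell cycle genes, 24 fell with CK666 and 24 with CytoD, beside 14.7% and 16% of all genes lower. None rose, and the median log2 fold change was -1.18 and -1.12. Their summed normalized count was 105693 to 108370 in control, 44863 to 47898 in CK666 and 48517 to 50047 in CytoD. Ccne2 and E2f8 had the largest falls under both drugs (with CK666 -2.89 and -2.31, with CytoD -1.67 and -1.72). In the second experiment the sum was 41274 to 46635 in siControl, 21198 to 22630 in siArp4 and 12240 to 13137 in siArp4+CK666. Against siControl 17 and 24 of the 25 fell, beside 13.1% and 15.8% of all genes lower. Without siControl replicate 2, 20 and 23 fell, where 27.9% and 33.2% of all genes passed in either direction. Without siControl replicate 1, 18 and 24 fell, where 35.7% and 40.3% passed. In the 2 knockdown groups, where the cell cycle sum was lowest, mean Phf19 was 4.33 (siArp4) and 9.45 (siArp4+CK666), against 66 normalized counts in siControl. Phf19 passed in siArp4 and not in siArp4+CK666, and Ezh2 passed in neither. In siArp4+CK666 against siArp4, 17 of the 25 cell cycle genes fell, beside 6.07% of all genes lower. In siControl against control 21 fell, beside 20.4%. Neither Phf19 nor Ezh2 passed in these 2 comparisons. The sums for adipocyte markers (4 genes) were 60 to 121 in control, 247 to 476 in CK666 and 666 to 859 in CytoD, and those for osteoblast markers (5 genes) 14 to 40, 90 to 130 and 97 to 109. The part of these genes in the PRC2 values was not tested.

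Among PRC2 subunits outside the 10, Ezhip was not matched to an identifier, and 5 (Phf1, Lcor, Lcorl, Skida1 and Epop) were tested. Phf1, the third PRC2.1 relative of Mtf2 and Phf19, was at 202, 208 and 161 normalized counts in control, 422, 312 and 347 in CK666 and 492, 515 and 451 in CytoD. It rose under both drugs (0.92, adjusted p = 9.37e-07, SE 0.17, and 1.35, adjusted p = 8.24e-14, SE 0.17). In the second experiment it was at 710, 1393 and 986 in siControl, 282, 330.4 and 288 in siArp4 cells and 163, 201 and 284 in siArp4+CK666. There it fell, with log2 fold changes of -1.78 (adjusted p = 7.61e-08, SE 0.30) and -2.25 (adjusted p = 3.39e-12, SE 0.31). Skida1 fell with CK666 (-1.93, adjusted p = 1.25e-06, SE 0.37) and in siArp4+CK666 against siControl (-2.81, adjusted p = 2.19e-10, SE 0.42) and against siArp4 (-2.66, adjusted p = 8.70e-09, SE 0.42), and Lcorl rose with CK666 (0.80, adjusted p = 0.00038, SE 0.20). In the comparisons with a control the list counted 2 higher and 1 lower with CK666, 1 higher with CytoD, 1 lower in siArp4 and 2 lower in siArp4+CK666, of 5 tested, beside 30%, 29.6%, 25.1% and 29.9% of all genes. It was 2 higher and 2 lower with CK666 without CK666 replicate 1, and in siArp4 2 lower without siControl replicate 2 and 1 higher and 1 lower without siControl replicate 1. In siArp4+CK666 it was 1 higher and 2 lower without siControl replicate 1. The shares of all genes in these 4 fits were 34.7%, 27.9%, 35.7% and 40.3%, in the order given.

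PRC1, which binds the PRC2 mark and ubiquitinates histone H2A, was represented by 23 subunit genes. With CK666 6 rose and 3 fell, and with CytoD 1 rose and 4 fell, beside 30% and 29.6% of all genes. The largest rises with CK666 were those of Pcgf1 (1.08, adjusted p = 1.86e-07, SE 0.19) and Ring1 (0.97, adjusted p = 3.21e-09, SE 0.15), and the largest falls those of Bcor (-0.80) and Cbx6 (-0.57). Bcor varied widely within CK666, from 424 to 1071 normalized counts, against 1236 to 1387 in control. With CytoD L3mbtl2 (-1.02, adjusted p = 3.22e-19, SE 0.11) and Pcgf5 (-0.88, adjusted p = 2.08e-11, SE 0.12) fell most and Ring1 rose (0.47). In CK666 against CytoD 8 were higher and 2 lower, beside 31.8% of all genes. Without CK666 replicate 1 these counts were 6 and 4, beside 39%. In the knockdown 2 rose and 1 fell, and with CK666 added 3 rose and 0 fell, with Pcgf5 higher in both (1.02 and 0.67). The shares of all genes there were 25.1% and 29.9%. Without CK666 replicate 1 the CK666 counts were 9 and 4, beside 34.7% of all genes. Those of siArp4 were 3 and 1 without siControl replicate 2, beside 27.9%. Those of siArp4+CK666 were 5 and 0 without siControl replicate 2, beside 33.2%, and 5 and 1 without siControl replicate 1, beside 40.3%.

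Of 15 genes of other complexes that use RBBP4 or RBBP7, such as the histone deacetylase complex NuRD and the chromatin assembly factor CAF-1, 1 rose and 5 fell with CK666 and 0 rose and 7 fell with CytoD, beside the same shares of all genes. The CAF-1 genes fell most, with log2 fold changes of -1.25 for Chaf1b and -1.16 for Chaf1a with CK666, and of -1.38 for Chaf1a with CytoD (adjusted p = 3.30e-32, DESeq2). In siArp4 1 rose (Gatad2a, 0.85, adjusted p = 2.10e-16, SE 0.10) and 2 fell, led by Chaf1b (-2.21, adjusted p = 5.35e-16, SE 0.26). In siArp4+CK666 the counts were 1 and 5. The shares of all genes were 25.1% and 29.9%. Without siControl replicate 2 the counts were 2 and 3 for siArp4, then 2 and 5 for siArp4+CK666, beside 27.9% and 33.2%. Without siControl replicate 1 they were 1 and 5, and 2 and 7, beside 35.7% and 40.3%. Neither H3K27 demethylase gene, Kdm6a or Kdm6b, passed in DESeq2 in these 4 comparisons. Without CK666 replicate 1 both were higher with CK666, beside 34.7% of all genes that passed. PR-DUB is the complex that removes the PRC1 mark, and 7 of its genes were tested. At most 2 passed in any of the 4 comparisons (0 higher and 1 lower with either drug, 1 and 0 in siArp4, 2 and 0 in siArp4+CK666). The shares of all genes were 30%, 29.6%, 25.1% and 29.9%. Without siControl replicate 1 the PR-DUB counts were 3 and 0, and 4 and 0, in the last 2 comparisons, beside 35.7% and 40.3%.

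The Hox genes, classic targets of Polycomb silencing, were read as a further list. Of 39, 15 were at 0 in every library and 19 could be tested. With CK666 1 rose (Hoxc13, 0.66, adjusted p = 1.07e-07, SE 0.12) and 3 fell, the largest being Hoxa11 (-1.42, adjusted p = 1.08e-50, SE 0.093) and Hoxa10 (-1.05, adjusted p = 8.12e-19, SE 0.11). With CytoD 1 rose (Hoxa13, 0.46, adjusted p = 0.000306, SE 0.11) and none fell. In siArp4 5 rose, led by Hoxc6 (1.79, adjusted p = 2.07e-13, SE 0.23) and Hoxa9 (1.33, adjusted p = 1.03e-18, SE 0.14), and 2 fell, among them Hoxc13 (-2.15, adjusted p = 9.75e-21, SE 0.22). In siArp4+CK666 2 rose and 5 fell. The shares of all genes in these 4 comparisons were 30%, 29.6%, 25.1% and 29.9%. With CK666 the counts were 1 and 5 without CK666 replicate 1, beside 34.7% of all genes. They were 6 and 2 in siArp4 without siControl replicate 2, beside 27.9%. In siArp4+CK666 they were 2 and 4 without siControl replicate 1 or 2, beside 40.3% and 33.2%. Many Hox genes overlap antisense transcripts, so that their counts are uncertain in unstranded libraries. No shared direction with the PRC2 genes was tested.

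Across the 18 libraries the members were compared pairwise on variance stabilized values, as a description, since libraries of a group are alike and the groups set most of the correlation. Pearson's r ranged from -0.895 (Ezh1 with Rbbp7) to 0.742 (Suz12 with Aebp2). It was -0.865 for Ezh1 with Phf19, -0.822 for Jarid2 with Phf19, and -0.658 for the catalytic pair. The core partners Eed and Suz12 reached 0.407, and Ezh2 reached 0.304 with Eed and -0.031 with Suz12. The 5 genes most like Ezh2 among the 10318 genes whose mean was 100 normalized counts or more were Tcf3 (0.874), Tnk2 (0.857), Itgav (0.842), Kars (0.841) and Rangrf (0.838).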

How the data were processed

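The files give estimated counts per gene. Per the study's methods and the submitters' processing notes, the authors quantified paired-end, unstranded reads with Salmon 1.2.1 at default settings on GRCm38 (mm10) with GENCODE annotation, and deposited the estimated counts without scaling between libraries. The step from transcripts to genes is not given in the sources used here. Before testing, the estimates were rounded to whole numbers, with the largest shift of a library's sum being 277 counts (0.00137%). Of 54347 identifiers, 54094 matched a symbol in the GENCODE annotation of GRCm38 without their version, and 253 did not.

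Each experiment (9 libraries) had its own fit in DESeq2 1.42.0 (R 4.3.3) with the group as the only term and two-sided Wald tests, and siControl against control and the difference of CK666 effects were fitted over all 18. Adjusted p-values are Benjamini-Hochberg values over all genes tested. Shares were compared by exact permutation tests (scipy 1.17.1). Alternatives were edgeR 4.0.16 (quasi-likelihood), TMM size factors, a filter (a count of 10 in at least 3 libraries), a replicate block, other sets of libraries and leaving out each replicate. The scripts were checked on simulated data. Replicates were counted as separate, since no pair of libraries agreed within sampling noise.

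The members and the gene lists were chosen with earlier results of these data known. The rule for genes named was all 10 members, from each list at most the 2 largest rises and 2 largest falls among genes that passed and averaged 50 normalized counts or more, and the 5 genes most like Ezh2. The estimated counts limit the precision through their number: a gene at a few counts, such as Phf19 after knockdown, has a wide interval.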

Additional observations from a re-analysis of the deposited data

Results flagged for a closer look

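The effect of CK666 was tested for a difference between knockdown cells and untransfected cells. The difference passed for 2 of the 10 PRC2 genes, beside 7.82% of all 13511 genes tested. The log2 difference (change from siArp4 to siArp4+CK666 minus change from control to CK666) was -0.56 for Ezh1 (DESeq2, adjusted p = 0.00779) and 1.31 for Jarid2 (adjusted p = 0.00948). Ezh1 was higher in 3 of 3 CK666 libraries than in any control library, whereas the siArp4 and siArp4+CK666 libraries overlapped. Jarid2 was lower in 3 of 3 CK666 libraries than in any control library, and again the siArp4 and siArp4+CK666 libraries overlapped. Neither passed with edgeR (adjusted p = 0.0376 for Ezh1 and 0.0484 for Jarid2). Of 16 alternative fits, 11 lost the call for Ezh1 and 13 lost it for Jarid2. Knockdown, transfection and experiment cannot be told apart in this contrast.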

How the results depend on the processing

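Over all members and comparisons, 883 alternative values kept their direction and their side of the threshold, 58 lost a call, 18 gained one and 21 changed sign, the last only for differences that had not passed. Counts of gene lists without siControl replicate 1 or 2 or CK666 replicate 1 were added after seeing the data. With a minimum absolute log2 fold change of 1, the number of members that passed was 1 with CK666, 1 with CytoD, 2 in CK666 against CytoD, 1 in siArp4, 1 in siArp4+CK666 against siControl, 1 in siControl against control and 1 for the difference of CK666 effects. In the same order that rule took 11%, 9.12%, 11.8%, 16.2%, 20.4%, 24.1% and 4.42% of all genes tested. The counts that follow are at adjusted p below 0.01 without that minimum. For the difference of CK666 effects the count was 0 with edgeR, 1 with TMM size factors and 0 to 1 with a library left out. In siArp4+CK666 against siArp4 it was 1, Suz12, with only the compared groups and 1 with all 18 libraries. Leaving out a library gave 2 to 5 in siArp4+CK666 against siControl.

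Sign changes concerned values near 0 or with wide spread. For Eed with CK666 the value was 0.0073 with edgeR and 0.021 with TMM, and for Ezh1 in CK666 against CytoD -0.0044 with all 18 libraries. With a library left out, log2 fold changes ranged from -0.087 to 0.086 for Eed and -0.0086 to 0.14 for Suz12 with CK666, and from -0.023 to 0.097 for Ezh1 in CK666 against CytoD. In siArp4+CK666 against siControl they ranged from -0.76 to 0.067 for Ezh2, -0.14 to 0.061 for Rbbp7 and -0.47 to 0.30 for Mtf2. Against siArp4 they ranged from -0.31 to 0.40 for Ezh2, -0.040 to 0.26 for Jarid2 and -3.15 to 1.69 for Phf19. In siControl against control Mtf2 ranged from -0.41 to 0.33, and the difference of CK666 effects for Phf19 from -2.44 to 2.40. The Ezh2 share in siArp4+CK666 minus siArp4 ranged from -9.33 to 3.19 percentage points. The cause of these shifts was not tested.

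Replicate numbers did not pair the libraries: same-numbered libraries of different groups correlated from -0.345 to 0.278 in the first experiment and from -0.608 to 0.786 in the second, and not every library correlated best with its own number. With a replicate block the count for the difference of CK666 effects was 1, and Phf19 passed with CK666 (-0.76, adjusted p = 0.0068) and in siArp4+CK666 (-3.86, adjusted p = 0.00236), while Jarid2 in that difference (0.0233) and Aebp2 in siControl against control (0.0111) did not.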

Other observations

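Beyond Ezh2, the genes whose levels followed other members most closely over the 18 libraries are given as values, and these members were chosen after their values were seen. For Aebp2 they were Ppp1r15b (Pearson r = 0.972), Slc1a4 (0.964), Aars (0.963), Hspa9 (0.956) and Trmt10c (0.949), among 10318 genes. For Suz12 the first was Pcgf3 (0.957), which encodes a subunit of variant PRC1 complexes. For Phf19 they were Zfp64 (0.971), Degs1 (0.967), Cenpe (0.959), Agk (0.957) and Eef1g (0.957), of which Cenpe encodes a kinesin of the mitotic kinetochore. For Ezh1 they were Ube2h (0.96), Slc40a1 (0.954), Enpp2 (0.953), Tbc1d13 (0.948) and Ypel2 (0.938). The libraries fall into 6 groups, so these values describe likeness of group patterns.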
